A study of Mus musculus with 6 samples.

Results

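mmu-miR-23a-3p, mmu-miR-23b-3p, mmu-miR-24-3p, mmu-miR-27a-3p and mmu-miR-27b-3p (mmu, for mouse, is left off from here) are the main products of a pair of microRNA clusters, and they were taken as a list of names. All 5 were on the arrays, among 1881 mouse microRNAs (miRNAs, small regulators that silence messenger RNAs), and all 5 were among the 237 miRNAs bright enough to be tested. The study measured miRNAs in left ventricle tissue of mice given sunitinib, a tyrosine kinase inhibitor used against cancer (3 samples), and of control mice (3 samples), all from males of strain C57BL/6. An Agilent array with a single dye, Cy3, was used for the 200 ng of total RNA of each sample. The sources used here give neither the dose and length of sunitinib treatment nor what the controls received. No label says whether the samples of a group are separate animals, and the p-values cover only how much these samples vary, which may be technical.

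The miR-23, miR-24 and miR-27 precursors sit side by side in the genome and are cut from a shared primary transcript. Vertebrates carry 2 copies of the trio, and the a-copy and b-copy products of miR-23 and of miR-27 are near-identical, while both copies give the same mature miR-24. The clusters are known for roles in blood vessel growth in endothelial cells, and miR-23a, miR-24 and miR-27b have each been studied in cardiac hypertrophy or survival of heart muscle cells.

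In the mouse (RefSeq, GRCm38.p6) the 3 precursors Mir23a, Mir27a and Mir24-2 lie within 404 bases on the plus strand of chromosome 8. No protein-coding gene of the RefSeq table spans them, and the nearest is Zswim4, 2020 bases away. The 3 precursors Mir23b, Mir27b and Mir24-1 lie within 792 bases on the plus strand of chromosome 13, inside the bounds of Aopep, an aminopeptidase gene. Whether they fall in its introns or exons was not analysed here. RefSeq sequences of 4 of the 5 members were used, and miR-23b-3p is named only. The mature sequences are shown to make plain which products share a seed (bases 2 to 8, in capitals), the stretch that pairs with target messenger RNAs. The 5′ arms of both miR-24 precursors are shown with them because, unlike miR-24-3p, each comes from 1 locus.
miR-23a-3p, chr8:84208563-84208583: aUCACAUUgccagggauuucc
miR-27a-3p, chr8:84208727-84208747: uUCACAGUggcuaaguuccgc
miR-27b-3p, chr13:63300760-63300780: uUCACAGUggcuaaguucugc
miR-24-3p, chr8:84208875-84208896 and chr13:63301251-63301272: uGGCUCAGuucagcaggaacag
miR-24-2-5p, chr8:84208839-84208860: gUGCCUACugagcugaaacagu
miR-24-1-5p, chr13:63301213-63301235: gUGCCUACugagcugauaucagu

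miR-27a-3p and miR-27b-3p share the seed UCACAGU and differ by 1 substitution over 21 bases, C19U counted from the 5′ end with the base of miR-27a-3p first. The seeds of miR-23a-3p (UCACAUU) and miR-24-3p (GGCUCAG) were different from it. Another 4 miRNAs on the arrays carried the seed of miR-24-3p, namely miR-5124b, miR-6369, miR-6410 and miR-6413, and each was well above background on 0 of 6 arrays. Sequences were matched for 1608 of the 1881 miRNAs, so the search for shared seeds was not complete.

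An array probe is a DNA strand complementary to the 3′ end of its miRNA. The brighter probes of the paralogous pairs are shown because each pair is told apart by a single base, in capitals.
miR-23a-3p probe: ggAaatccctggcaatgt
miR-23b-3p probe: ggTaatccctggcaatg
miR-27a-3p probe: gcGgaacttagccactg
miR-27b-3p probe: gcAgaacttagccactg

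Over the 17 bases both probes of a pair hold, the substitution was A3T between the miR-23a-3p and miR-23b-3p probes and G3A between the miR-27a-3p and miR-27b-3p probes, counted from the probe's 5′ end with the a-copy first. How far a probe also binds the other copy was not tested, so the values of the 2 paralogs may not be independent. The miR-24-3p probe matched both precursors and was mapped to 2 places (chromosomes 8 and 13) in the files, so its signal is the sum over both clusters.

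All 6 arrays lay on 1 slide, with 0 saturated spots and between 234 and 252 miRNAs well above background on each. The 4 cardiomyocyte miRNAs listed to check the tissue, miR-1a-3p, miR-133a-3p, miR-208a-3p and miR-499-5p, were well above background on all 6 arrays. Of 4 leukocyte miRNAs 2 fell in sunitinib hearts, beside 1.69% of all tested miRNAs, with log2 changes of -0.64 (miR-142a-3p) and -1.32 (miR-223-3p). The other 2 had values of 0.35 (miR-150-5p) and 0.15 (miR-155-5p) and did not pass. The summed level of that list ran from 8.72 to 8.96 on the log2 scale in sunitinib hearts and from 9.30 to 9.45 in control hearts, and its part in the members' values was not tested. None of 14 miRNAs listed for cardiomyocytes, endothelium, smooth muscle, fibroblasts or red cells passed the threshold. In whole tissue, fewer cells of a type and less RNA per cell cannot be told apart. Sunitinib replicates 1 and 2 lay in slide row 1, and sunitinib replicate 3 lay with the 3 controls in row 2.

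None of the 5 members passed the threshold in either direction. In the limma fit over all 237 tested miRNAs, 8 passed a Benjamini-Hochberg adjusted p of 0.05, which is 3.38% of those tested, with 4 higher (1.69%) and 4 lower (1.69%). At an unadjusted p under 0.05 there were 0 of 5 members and 45 of 237 miRNAs (19.0%). The point estimates of all 5 members were above 0, as for 52.7% of tested miRNAs, with log2 changes (sunitinib minus control) between 0.038 and 0.17 and a median of 0.067, against a median of 0.019 over all tested. With the slide row as a block 2 of the 5 stayed above 0, and the median change was -0.0052 for the members against 0.024 over all tested.

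mmu-miR-23a-3p, which targets the atrophy ubiquitin ligase MuRF1 in heart muscle, had the highest estimate of the 5. Its scaled signal was 12.49, 12.34 and 12.24 on the log2 scale in sunitinib replicates 1 to 3, against 12.20, 12.21 and 12.15 in control replicates 1 to 3. All 3 sunitinib arrays lay above all 3 control arrays, but sunitinib replicate 3 cleared the highest control by less than the spread within its own group. Means were 12.36 ± 0.12 in sunitinib hearts and 12.19 ± 0.029 in control hearts (SD, n = 3 each). The difference of 0.17 on the log2 scale (SE 0.079) fell short of the threshold at a limma adjusted p of 0.297. Its 95% interval ran from -0.017 to 0.37, or from -1.16% to 28.8% on the linear scale. miR-23a-3p was the 1 member of 5 whose groups did not overlap, beside 27.4% of all tested miRNAs in either direction and 18.1% with sunitinib higher. Without sunitinib replicate 1 the change of miR-23a-3p was 0.11, and in the deposited value table, where the groups overlapped, it was 0.11.

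mmu-miR-23b-3p, its paralog from chromosome 13, had values of 11.37, 11.31 and 11.12 in sunitinib replicates 1 to 3, against 11.20, 11.16 and 11.08 in control replicates 1 to 3. The groups overlapped, since sunitinib replicate 3 lay below 2 of the 3 controls. Means were 11.27 ± 0.13 in sunitinib hearts and 11.14 ± 0.061 in control hearts (SD, n = 3 each). The change of 0.12 (SE 0.085, limma adjusted p = 0.496) had a 95% interval from -0.083 to 0.33, or from -5.62% to 25.5%. It was 0.071 without sunitinib replicate 1 and 0.20 without sunitinib replicate 3, and the dimmer of its 2 probes gave -0.0025.

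mmu-miR-24-3p, which restrains endothelial angiogenesis and programmed death of heart muscle cells in mouse infarct models, had values of 11.86, 11.87 and 11.76 in sunitinib replicates 1 to 3, against 11.79, 11.72 and 11.77 in control replicates 1 to 3. Again sunitinib replicates 1 and 2 were above every control, and replicate 3 lay inside the control range. Means were 11.83 ± 0.063 in sunitinib hearts and 11.76 ± 0.034 in control hearts (SD, n = 3 each). The change was 0.067 (SE 0.062, limma adjusted p = 0.629), with a 95% interval from -0.083 to 0.22, or from -5.59% to 16.3%. Without sunitinib replicate 3 it was 0.10, and its sign turned in the deposited value table (-0.017) and with quantile normalization (-0.013).

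mmu-miR-27a-3p, a miRNA that represses adipogenic and lipid-handling genes, had the smallest change. It had values of 11.06, 10.998 and 11.003 in sunitinib replicates 1 to 3, against 10.92, 10.98 and 11.05 in control replicates 1 to 3. The groups overlapped, and control replicate 3 was higher than 2 of the 3 sunitinib arrays. Means were 11.02 ± 0.032 in sunitinib hearts and 10.98 ± 0.062 in control hearts (SD, n = 3 each). The change was 0.038 (SE 0.062, limma adjusted p = 0.776), with a 95% interval from -0.11 to 0.19, or from -7.41% to 13.8%. Single arrays moved it: it was 0.019 without sunitinib replicate 1, 0.0086 without control replicate 1 and 0.070 without control replicate 3.

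mmu-miR-27b-3p, whose overexpression in mouse heart muscle has been reported to cause hypertrophy, had values of 10.53, 10.63 and 10.47 in sunitinib replicates 1 to 3, against 10.49, 10.43 and 10.49 in control replicates 1 to 3. Sunitinib replicate 3 lay below 2 of the 3 controls, so the groups overlapped. Means were 10.54 ± 0.082 in sunitinib hearts and 10.47 ± 0.038 in control hearts (SD, n = 3 each). The change was 0.067 (SE 0.067, limma adjusted p = 0.639), with a 95% interval from -0.094 to 0.23, or from -6.33% to 17.2%. The change was 0.024 without sunitinib replicate 2 and 0.10 without sunitinib replicate 3.

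**Figure D1:**
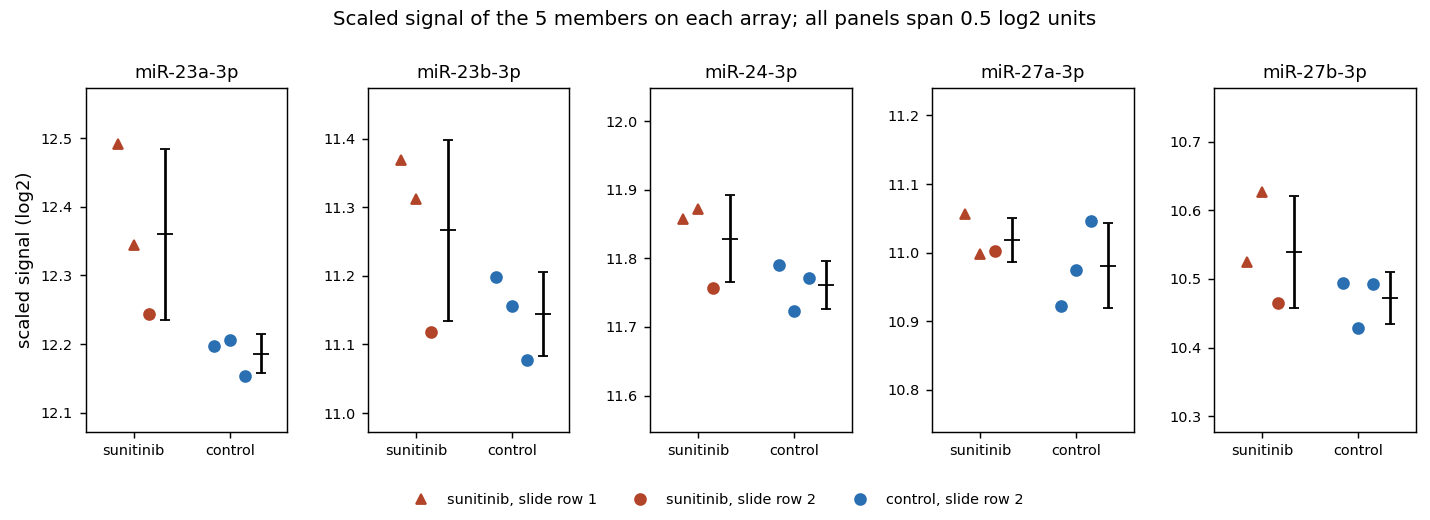
Scaled signal (log2, vertical axis) of the 5 members on each array, sunitinib left of control, with black bars for the group mean ± SD (n = 3); every panel spans 0.5 log2 units. Only for miR-23a-3p do the 3 sunitinib points all lie above the 3 control points, and for 4 of the 5 miRNAs the triangles (sunitinib arrays of slide row 1) are the 2 highest points.

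A miss of the threshold does not show that the members were at equal levels, and the intervals state what these arrays allow. Over the 5 members the lowest bound was -7.41% (miR-27a-3p) and the highest 28.8% (miR-23a-3p). The members were measured with standard errors between 0.062 and 0.085, with a median of 0.067 against 0.090 over all tested miRNAs. Signals of the members' brighter probes, averaged over a probe's spots on 1 array, were between 74.9 and 433 times the local background. The log2 signals of the 12 to 15 usable spots of such a probe on 1 array had an SD from 0.033 to 0.14.

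Each member had 2 probes of different length, all of them well above background on 6 of 6 arrays. The brighter and the dimmer probe gave 0.17 and 0.093 for miR-23a-3p, 0.12 and -0.0025 for miR-23b-3p, and 0.067 and 0.038 for miR-24-3p. They gave 0.038 and 0.044 for miR-27a-3p, and 0.067 and 0.048 for miR-27b-3p. The estimate at the brighter probe was thus the higher one for 4 of 5 members, and the 2 probes of miR-23b-3p differed in sign. The median change over all tested miRNAs was 0.019 at the brightest probe (237 tested) and -0.016 at the second brightest (177 tested). Those medians cover different sets of miRNAs. Whether the 2 probes of other miRNAs differed in the same way was not tested. At the dimmer probe of miR-23a-3p the groups overlapped, with 10.87, 10.66 and 10.62 in sunitinib replicates 1 to 3 against 10.66, 10.62 and 10.60 in control replicates 1 to 3.

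**Figure D2:**
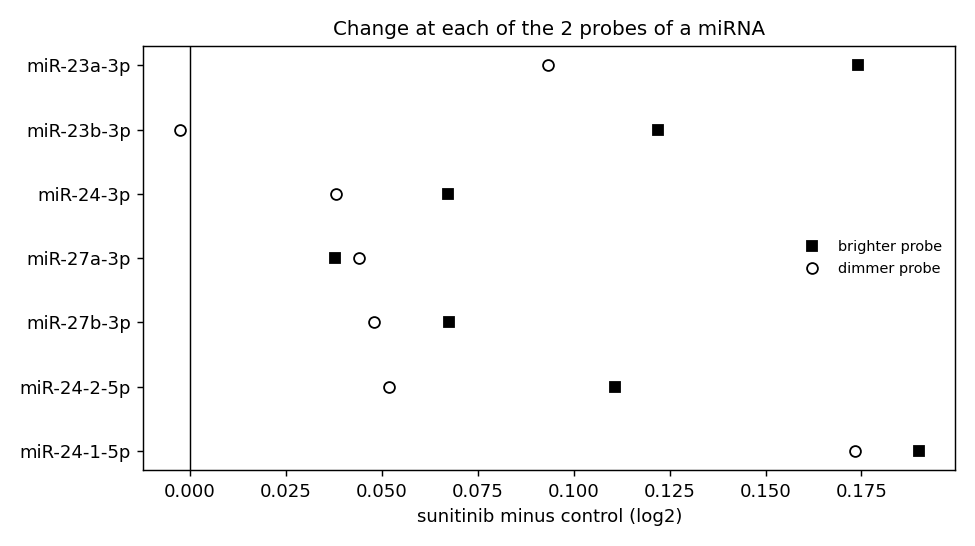
Log2 change, sunitinib minus control (horizontal axis), at the brighter probe (filled square) and the dimmer probe (open circle) of the 5 members and of the 5′ arms of the miR-24 precursors. The brighter probe gives the higher value for 4 of the 5 members, and the dimmer probe of miR-23b-3p lies at -0.0025. Over all tested miRNAs the median change was 0.019 at the brightest probe (237 tested) and -0.016 at the second brightest (177 tested), which are different sets.

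The opposite arms of the same hairpins are mostly degraded during maturation. Of 6 such arms on the arrays 2 were tested, both from miR-24, and 0 passed. On 0 of 6 arrays did miR-23a-5p, miR-23b-5p, miR-27a-5p or miR-27b-5p stand well above background. The same held for miR-3074-5p, miR-3074-1-3p and miR-3074-2-3p, which are annotated on the strand opposite to the miR-24 precursors. miR-24-2-5p, from chromosome 8, had values of 5.97, 5.61 and 5.73 in sunitinib replicates 1 to 3, against 5.70, 5.68 and 5.60 in control replicates 1 to 3. Its groups overlapped, with sunitinib replicate 1 the highest array. Its change was 0.11 (SE 0.10, limma adjusted p = 0.629), and it was 0.0088 without sunitinib replicate 1 and 0.19 without sunitinib replicate 2.

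miR-24-1-5p, from chromosome 13, had values of 5.46, 5.43 and 5.22 in sunitinib replicates 1 to 3, against 5.09, 5.17 and 5.28 in control replicates 1 to 3. Sunitinib replicates 1 and 2 were above every control and replicate 3 below 1 of them. Its change of 0.19 (SE 0.092, limma adjusted p = 0.310) had a 95% interval from -0.033 to 0.41. At their brighter probes these dim arms had signals, averaged over spots on 1 array, between 3.39 and 6.47 times the local background. They were measured less precisely than the members.

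Whether the 2 clusters moved unequally was asked by taking, on each array, the log2 value of the chromosome 8 product minus that of its chromosome 13 partner. For miR-23 this difference was 1.12, 1.03 and 1.13 in sunitinib replicates 1 to 3, against 0.9998, 1.05 and 1.08 in control replicates 1 to 3. The groups overlapped, and the difference was larger in sunitinib by 0.052 (exact two-sided permutation test, p = 0.3, 0.5 after adjustment over 3 pairs). For miR-27 it was 0.53, 0.37 and 0.54 in sunitinib replicates 1 to 3, against 0.43, 0.55 and 0.55 in control replicates 1 to 3. These overlapped too, with a change of -0.030 (exact two-sided permutation test, p = 0.5, adjusted p = 0.5). For the 5′ arms of miR-24, a pair added after their detection was seen, the change was -0.079 (exact two-sided permutation test, p = 0.5, adjusted p = 0.5). With 3 against 3 samples this test cannot give a p below 0.1, so no unequal change of the clusters could have been called.

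**Figure D3:**
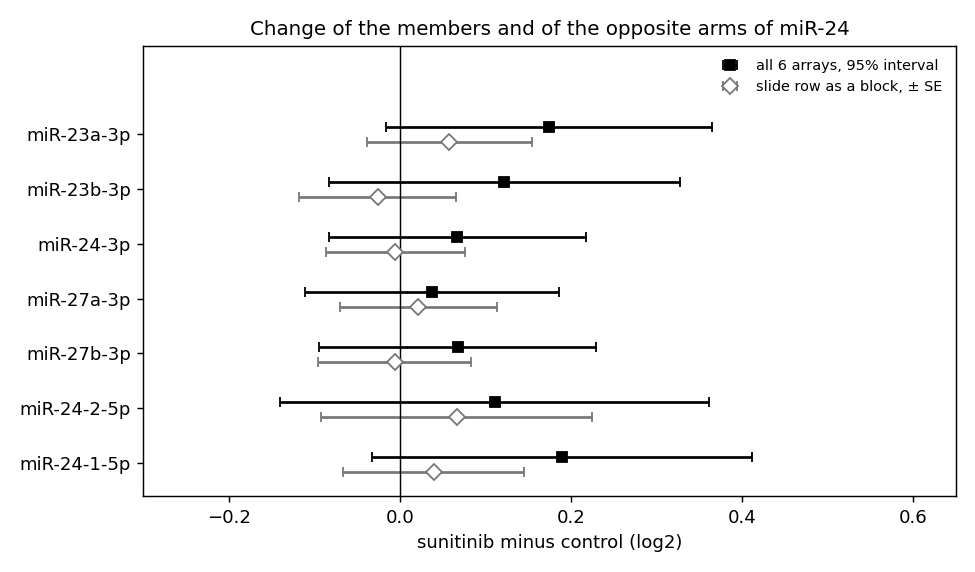
Log2 change, sunitinib minus control (horizontal axis), of the 5 members and of the 5′ arms of the miR-24 precursors. Filled squares give the fit over all 6 arrays with its 95% interval, and every interval holds 0; open diamonds give the fit with the slide row as a block, ± SE, and lie between -0.026 and 0.067.

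The sunitinib arrays did not read alike. For 4 of the 5 members, all but miR-27a-3p, the 2 sunitinib arrays of slide row 1 were the highest of the 6, as they were for 13.5% of all tested miRNAs. The mean deviation of the 5 members from their own means over 6 arrays was 0.10 and 0.075 in sunitinib replicates 1 and 2, and -0.038 in sunitinib replicate 3. It was -0.035, -0.058 and -0.048 in control replicates 1 to 3, so sunitinib replicate 3 stood among the controls. Over all tested miRNAs the median deviation was -0.011, 0.054 and 0.0071 in sunitinib replicates 1 to 3. In control replicates 1 to 3 it was -0.038, -0.0076 and 0.0072. On sunitinib replicate 2 the members' 0.075 thus stood beside 0.054 over all tested, and on sunitinib replicate 1 their 0.10 beside -0.011.

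Within row 2, which holds 1 sunitinib array and 3 control arrays, the change was 0.058 for miR-23a-3p, 0.022 for miR-27a-3p, -0.0052 for miR-24-3p, -0.0063 for miR-27b-3p and -0.026 for miR-23b-3p. The fit with the slide row as a block gave these same values, since row 1 holds no control array, with limma adjusted p from 0.873 to 0.973. Row 1 and treatment cannot be told apart for sunitinib replicates 1 and 2.

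**Figure D4:**
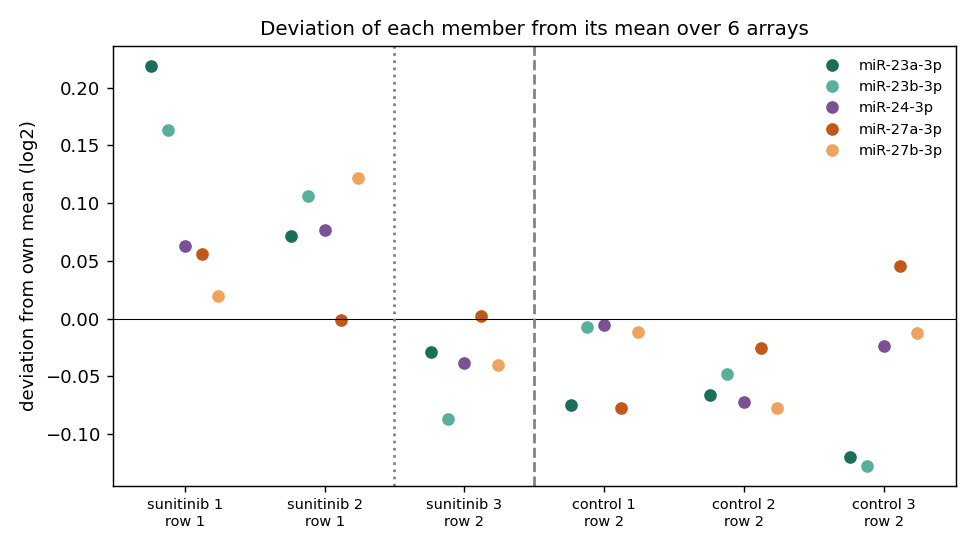
Deviation of each member from its own mean over 6 arrays (log2, vertical axis) on each array (horizontal axis), with the slide row under each label; the dashed line parts sunitinib from control and the dotted line parts slide row 1 from row 2. Sunitinib replicates 1 and 2 reach 0.22 and 0.12. Sunitinib replicate 3 lies between -0.087 and 0.0026, within the range of -0.13 to 0.046 spanned by all members together on the control arrays. Against its own values in control replicates 1 to 3 (-0.075, -0.067 and -0.12), miR-23a-3p on sunitinib replicate 3 (-0.029) lies higher.

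The members' profiles over the 6 arrays were compared by the root mean square difference of their log2 values, each centred on its own mean. miR-24-3p and miR-27b-3p were each other's nearest of all tested miRNAs, at 0.026. The next nearest to both were miR-107-3p and miR-98-5p, at 0.033 and 0.038 from miR-24-3p. For miR-23b-3p the nearest were miR-140-5p (0.044), its paralog miR-23a-3p (0.046) and miR-24-3p (0.064). For miR-23a-3p they were miR-3069-3p (0.038), miR-361-5p (0.042) and miR-30a-5p (0.045). For miR-27a-3p they were miR-151-5p (0.017), miR-1a-3p (0.025) and miR-378d (0.027), and among the members it lay 0.058 from miR-24-3p, 0.069 from its paralog miR-27b-3p, 0.10 from miR-23a-3p and 0.11 from miR-23b-3p. These distances describe 6 arrays that share 1 slide and 1 scaling.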

How the data were processed

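Per the file headers, the authors' scanner output comes from Agilent Feature Extraction 10.7.1.1 with genome build mm9, and its processed signal is a background-subtracted intensity on a linear scale. The deposited value table holds log2 values by the authors and was an alternative; its scaling and centring remain unknown. Its columns had medians of 2.199, 2.200 and 2.196 in sunitinib and 2.196, 2.195 and 2.196 in control replicates 1 to 3, and each matched its own array best. Control and outlier spots were left out. Each array was scaled to its 75th percentile over 393 probes well above background on every array. Scaled signals under 1 were set to 1, and log2 values of a probe's spots were averaged. At least 50% of a probe's spots had to be flagged well above background for the probe to count so, and a miRNA was represented by its brightest probe. Testing needed such detection on all 3 arrays of either group. limma 3.58.1 in R 4.3.3 (lmFit, eBayes, Benjamini-Hochberg, 0.05) was fitted over all tested miRNAs. Named miRNAs were the members, their other arms and opposite-strand products, miRNAs sharing a seed, the 3 nearest profiles of each member, and tissue markers. Members and lists were chosen with earlier results of these data known. The number of arrays limits the precision.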

Additional observations from a re-analysis of the deposited data

How the results depend on the processing

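The members were refitted under 23 alternatives, covering the signal's correction and scaling, the choice of probe, detection, the variance model, blocks, the value table and each sample left out. In these, 0 of the 5 members passed in either direction, with limma adjusted p from 0.210 to 0.989. Detection by any probe and the pair of miR-24 arms were chosen after seeing the data. The former tested the same 237 miRNAs and repeated the main fit, so it could not give another outcome. The higher floor, no filter and detection on all arrays left each member's change as it was, altering only its SE and p-values. Changes ran from 0.058 to 0.23 for miR-23a-3p, -0.026 to 0.20 for miR-23b-3p, -0.017 to 0.10 for miR-24-3p, 0.0086 to 0.070 for miR-27a-3p and -0.0063 to 0.10 for miR-27b-3p. Signs turned under the slide row block for miR-23b-3p (-0.026), miR-24-3p (-0.0052) and miR-27b-3p (-0.0063), at the second brightest probe for miR-23b-3p (-0.0025), and for miR-24-3p with quantile normalization (-0.013) and in the deposited value table (-0.017). With quantile normalization the difference of changes turned to -0.0012 for miR-23a-3p minus miR-23b-3p and to 0.017 for miR-27a-3p minus miR-27b-3p. Leaving out each sample gave -0.070 to 0.025 for the miR-27 pair and -0.16 to 0.029 for the miR-24 arms, both highest without sunitinib replicate 2. The cause was not tested.

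Same-numbered samples had deviations correlated at 0.18, 0.22 and -0.055, and differently numbered ones at -0.31 to 0.25. Sunitinib replicates 1 and 2 each correlated best with the control of the same number, and sunitinib replicate 3 with control replicate 1. Correlations this small cannot tell whether the numbers pair the samples. With the replicate block the change of miR-23a-3p was 0.17 (limma adjusted p = 0.371). Over all tested miRNAs, 4 were higher and 4 lower. This split was 0 and 2 under the replicate block, 0 and 1 under the slide row block, 0 and 4 after quantile normalization, and 2 and 2 after normexp. It was 1 and 3 for unscaled signals, 4 and 7 when probes were averaged, 4 and 2 when they were summed, 0 and 3 for unfiltered miRNAs, and 6 and 7 under array weights. Omitting 1 array in turn gave from 0 to 5 higher and from 2 to 3 lower. The 4 5′ arms that were not tested were limited by their signal over background.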
